A study of Mus musculus with 3 samples.

Results

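NR2F2 binding was examined at the genes of the TALE homeobox family, a group of transcription factors that includes Pknox2. A peak was assigned to a family member when the nearest transcription start site (TSS) was a start of that gene, or when the peak lay inside one of its transcripts, in the curated RefSeq annotation of GRCm38. By this rule 14 of 10069 NR2F2 binding peaks (0.139%) belonged to 5 of the 9 genes examined. Pknox2 held 7 of them, Meis1 held 3, Meis2 held 2, and Pknox1 and Meis3 held 1 each. No peak was assigned to Pbx2, Pbx3, Pbx4 or Tgif1. The genes were chosen with results of these data in view, and the authors' caller selected peaks on merged ChIP reads over input, so the members were in effect chosen by their ChIP counts, and ChIP counts and their ratio to input are given as a description.

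The libraries came from E14.5 testes of CD-1 mice, an outbred stock, collected apart from the mesonephros. Both NR2F2 ChIP libraries (replicates 1 and 2) came from independent immunoprecipitations with a COUP-TFII antibody, COUP-TFII being another name of NR2F2, and the methods give 30 pooled embryonic testes as the source of the chromatin. The single input library is testis chromatin of the same stage sequenced without immunoprecipitation, and its label carries no replicate number. All libraries were deposited as raw read counts over the same peaks, each 300 bp wide, in mm10 coordinates. Whole testes hold several cell types, so a binding site used in few cells and weak binding in many cells cannot be told apart. Counts at peaks do not measure expression, so the tissue could not be checked against marker genes.

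TALE homeodomain proteins carry extra residues in a loop of the homeodomain. The family comprises the PBX proteins, the MEIS and PKNOX (PREP) proteins that bind DNA together with PBX partners and with HOX proteins, and the TGIF, MKX and Iroquois (IRX) proteins. MEIS and PKNOX proteins prefer sites with the core TGACAG, whereas PBX proteins with HOX partners bind sites such as TGATTNAT. NR2F2 is an orphan nuclear receptor of the interstitial cells of the fetal testis, and like other nuclear receptors it recognises the half-site AGGTCA or GGGTCA, often as a repeated pair.

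The sequences of the strongest peaks are shown first, as the plus strand of GRCm38 (the assembly of mm10), with every AGGTCA or GGGTCA half-site on either strand in capitals. On the strand opposite to the half-site these read TGACCT or TGACCC. The peaks shown whole are the pair with the highest counts at Pknox2 and the only peak at Pknox1, and each has a single half-site.
Pknox2 intron 2, chr9:37054170-37054469: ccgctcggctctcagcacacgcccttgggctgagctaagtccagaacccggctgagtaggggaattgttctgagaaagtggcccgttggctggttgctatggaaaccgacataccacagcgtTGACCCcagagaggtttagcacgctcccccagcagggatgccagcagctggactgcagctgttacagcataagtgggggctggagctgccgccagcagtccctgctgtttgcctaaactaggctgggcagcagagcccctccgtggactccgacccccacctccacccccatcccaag
Pknox2 intron 3, chr9:36972240-36972539: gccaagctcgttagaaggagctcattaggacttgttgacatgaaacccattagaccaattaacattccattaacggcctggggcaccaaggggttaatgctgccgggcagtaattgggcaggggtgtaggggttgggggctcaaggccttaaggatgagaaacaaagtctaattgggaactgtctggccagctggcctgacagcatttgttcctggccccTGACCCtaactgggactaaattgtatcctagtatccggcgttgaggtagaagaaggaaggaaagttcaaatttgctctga
Pknox1 upstream, chr17:31557427-31557726: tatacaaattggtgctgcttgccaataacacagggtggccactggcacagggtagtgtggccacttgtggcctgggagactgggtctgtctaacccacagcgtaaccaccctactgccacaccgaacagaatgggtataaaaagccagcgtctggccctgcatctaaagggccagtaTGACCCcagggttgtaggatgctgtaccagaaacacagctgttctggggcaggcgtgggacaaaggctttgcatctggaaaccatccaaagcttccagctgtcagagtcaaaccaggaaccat

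The next windows, of 60 bases each, carry the half-site AGGTCA nearest to the peak centre. The Pknox2 window is shown because it holds AGAGGTCA, an extended half-site. The Meis2 window is shown because it holds a pair of half-sites in the same orientation with 2 bases between them, a direct repeat of the kind that nuclear receptor dimers bind. The Meis1 windows show a single half-site within 20 bp of the peak centre.
Pknox2 intron 2, extended half-site, chr9:37008165-37008224: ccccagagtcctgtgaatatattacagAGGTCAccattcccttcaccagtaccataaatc
Meis2 intron 8, repeated half-site, chr2:116021216-116021275: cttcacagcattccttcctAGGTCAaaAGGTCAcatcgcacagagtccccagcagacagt
Meis1 intron 9, chr11:18885789-18885848: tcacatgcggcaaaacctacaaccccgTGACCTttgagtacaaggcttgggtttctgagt
Meis1 upstream, chr11:19027165-19027224: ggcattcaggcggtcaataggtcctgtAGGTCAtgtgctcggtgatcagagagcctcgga
The part of the Meis3 peak that precedes the TSS is shown because this is the only one of the 14 peaks at a curated start site, and this part has no half-site.
Meis3 before the TSS, chr7:16175283-16175394: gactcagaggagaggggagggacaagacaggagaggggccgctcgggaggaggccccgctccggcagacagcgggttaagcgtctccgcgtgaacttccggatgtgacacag

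The counts at all peaks set the scale for these genes. Counts summed over all peaks, which are not sequencing depths, came to 426784 in ChIP replicate 1, 364261 in ChIP replicate 2 and 73251 in the input. The median peak had 7 input counts and 37 and 31 ChIP counts, and its summed ChIP count was 68, the lowest being 24. At the TALE gene peaks the medians were 6 input counts and 42 and 35.5 ChIP counts. Their summed ChIP counts ranged from 37 to 293 with a median of 76, and 9 of the 14 lay above the median of all peaks. The median ChIP to input ratio, with 0.5 added to each count, was 6.21 ± 0.32 (SD, n = 2 replicates) at TALE gene peaks and 4.75 ± 0.505 at all peaks. With 5 added in place of 0.5, these fell to 3.87 ± 0.27 and 3.28 ± 0.31. The SDs come from unscaled ChIP counts over the same input. They therefore include the difference in totals between the replicates and hold no spread of the input. Without the depths of the libraries these ratios are relative, and a ratio of 1 has no fixed meaning.

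**Figure D1:**
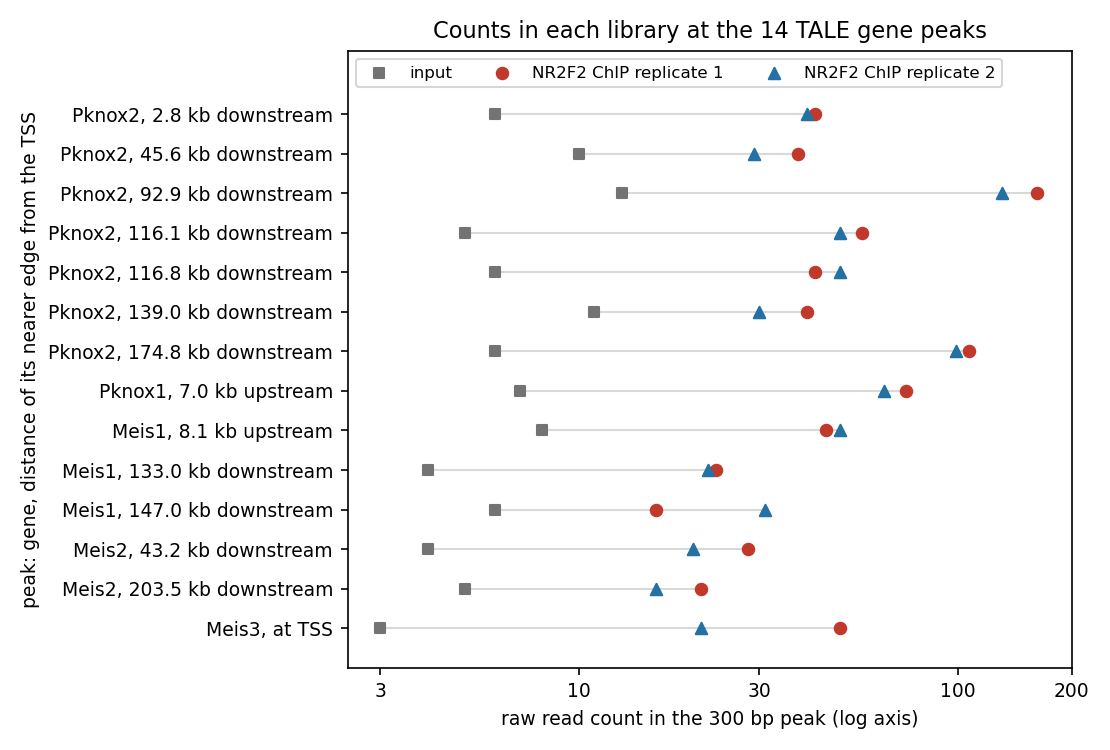
Raw read counts in the input (squares), ChIP replicate 1 (circles) and ChIP replicate 2 (triangles) at each of the 14 TALE gene peaks, on a log axis, with peaks ordered by gene and by distance from the TSS. At every peak both ChIP counts lie above the input count, which ranges from 3 to 13.

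Pknox2 encodes a PBX partner protein of the PREP group. The gene (208076) spans 256 kb of chromosome 9 (36890979 to 37147322, minus strand), with a single curated TSS and 2 curated transcripts. All 7 peaks lay in introns, from 2789 bp to 174783 bp downstream of the TSS, and together they held 914 ChIP counts. Among curated genes 5 had at least 7 peaks inside their span, namely Nfia with 9, Rbms3 with 8, and Dnm3, E130307A14Rik and Pknox2 with 7 each. Of 439 genes that span 200 to 300 kb, a range chosen after the Pknox2 value was seen, 215 had a peak and the median gene had 0. Pknox2 had the most of them, at 2.73 peaks per 100 kb.

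The strongest Pknox2 peak lay in intron 2 (chr9:37054170-37054469), 92853 bp downstream of the TSS. It had 13 input counts, 162 counts in ChIP replicate 1 and 131 in replicate 2, a mean of 146.5 ± 21.9 ChIP counts (SD, n = 2). The ChIP counts were 12.5 times (95% exact interval 7.09 to 23.9) and 10.1 times (5.69 to 19.4) the input count, where intervals here and below cover counting error only. By summed ChIP count it ranked 44 of 10069, and it ranked 2 among the 1541 peaks that lay more than 50 kb from any curated TSS, whose median was 54. This distance held for curated starts only, since a start of some gene lay 212 bp away with predicted RefSeq transcripts included and 27771 bp away with GENCODE M21 transcripts. The peaks closest to it in summed count lay near Sdha and Nol7, just above, and near Mir3089 and Gtf3a, just below. All 4 of them lay within 10 kb of a TSS, those of Sdha (168 and 133 ChIP counts) and Nol7 (147 and 152) across it. The peak at Mir3089 (154 and 132 counts) lay 2179 bp upstream and that at Gtf3a (149 and 136 counts) 6386 bp upstream.

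The next Pknox2 peak by count lay in intron 3 (chr9:36972240-36972539), 174783 bp downstream of the TSS. It had 6 input counts and 107 and 99 ChIP counts, and ranked 185. The ratios to input were 17.8 (7.93 to 49.7) and 16.5 (7.32 to 46.0), the highest values among the 14 TALE gene peaks in both replicates. The nearest curated TSS belonged to Fez1, which encodes a protein of axon growth, at 138666 bp. By that annotation this peak counted as a Pknox2 peak only because it lay inside the transcript. With GENCODE M21 transcripts the nearest start was one of Pknox2, 14733 bp away. With predicted RefSeq transcripts included, a start of some gene lay 1591 bp away.

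A pair of peaks in intron 2 lay 429 bp apart, and 6.75% of all peaks had a neighbour within 1000 bp. The peak nearer to the TSS (chr9:37030937-37031236, 116086 bp downstream) had 5 input counts and 56 and 49 ChIP counts. Its partner (chr9:37030208-37030507, 116815 bp downstream) had 6 input counts and 42 and 49 ChIP counts.

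The remaining 3 Pknox2 peaks had ChIP counts near those of the median peak. The one nearest to the TSS lay in intron 1 (chr9:37144234-37144533, 2789 bp downstream), with 6 input counts and 42 and 40 ChIP counts. Another lay in intron 1 (chr9:37101407-37101706, 45616 bp downstream), with 10 input counts and 38 and 29 ChIP counts. The last lay in intron 2 (chr9:37008041-37008340, 138982 bp downstream), with 11 input counts and 40 and 30 ChIP counts. The latter pair had higher input counts than all other TALE gene peaks except the strongest, and their ratios to input, between 2.73 and 3.80, were the lowest at Pknox2. Distances at Pknox2 depend on the annotation, since with GENCODE M21 transcripts the nearest Pknox2 start lay 1127 to 43665 bp from the 7 peaks.

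**Figure D2:**
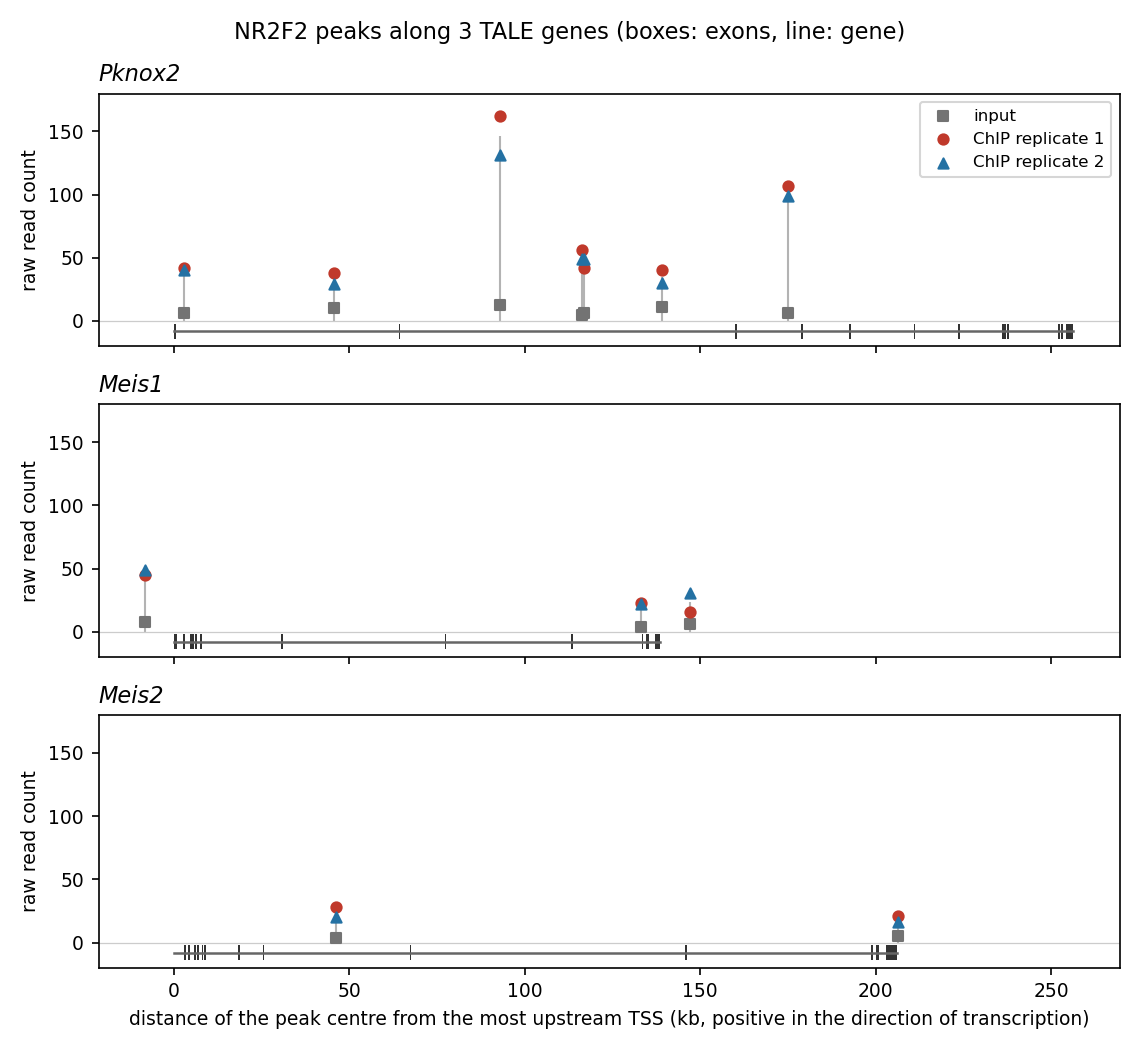
Peaks along Pknox2, Meis1 and Meis2, with distance from the most upstream TSS in kb on the horizontal axis and raw counts on the vertical axis (squares, input; circles and triangles, ChIP replicates 1 and 2; grey stems, mean of the ChIP replicates; black boxes, exons). The 7 Pknox2 peaks are spread over its introns 1 to 3 and include the peaks with the highest counts, whereas Meis1 and Meis2 each have a peak in an intron and a peak past the gene's end.

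Pknox1 encodes PREP1, the paralogue of the Pknox2 product. The gene (18771, chromosome 17, 31564773 to 31607693, plus strand) had a single peak (chr17:31557427-31557726), 7047 bp upstream of the curated TSS and outside any curated gene. With GENCODE M21 transcripts a start of another gene lay 301 bp away, and the peak was not assigned to Pknox1. In the libraries the counts were as follows. The peak had 7 input counts, 73 counts in ChIP replicate 1 and 64 in replicate 2, and ranked 827. The ratios to input were 10.4 (4.81 to 26.9) and 9.14 (4.19 to 23.7). Both ChIP counts lay above those of every MEIS gene peak and of 5 of the 7 Pknox2 peaks.

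Meis1 encodes a HOX and PBX cofactor best known in blood stem cells. Its 3 peaks (gene 17268, chromosome 11, 18880428 to 19018969, minus strand) lay upstream, in an intron and past the end of the gene. The upstream peak (chr11:19027027-19027326, 8058 bp from the TSS) had 8 input counts and 45 and 49 ChIP counts. The peak in intron 9 (chr11:18885665-18885964) lay 14 bp from an exon and had 4 input counts and 23 and 22 ChIP counts. The peak past the gene's end (chr11:18871661-18871960) lay 147009 bp from the curated TSS. A start of some gene lay 220 bp from it with predicted RefSeq transcripts included and 195 bp with GENCODE M21 transcripts. This peak had 6 input counts and 16 and 31 ChIP counts. The upstream peak was thus the highest at Meis1 in both replicates, and the other peaks lay below the median of all peaks in replicate 1. The ratios to input of the peak past the gene's end were 2.67 (0.991 to 8.32) in replicate 1 and 5.17 (2.12 to 15.1) in replicate 2.

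Meis2 encodes a close relative of MEIS1 with roles in limb and neural crest development. The gene (17536, chromosome 2, 115861264 to 116067444, minus strand) has 3 curated TSSs. The peak in intron 8 (chr2:116021116-116021415, 43204 bp downstream of the nearest of them) had 4 input counts and 28 and 20 ChIP counts. The other peak (chr2:115860837-115861136) lay 128 bp past the gene's end, with 5 input counts and 21 and 16 ChIP counts, the lowest summed ChIP count of the 14 peaks. A further peak (chr2:116075793-116076092, 24 and 29 ChIP counts over 4 input counts) lay 8349 bp from a Meis2 TSS but 4 bp from that of 2810405F15Rik, so the rule placed it outside.

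Meis3 encodes another MEIS protein, studied in hindbrain patterning. Its peak (gene 17537, chromosome 7, 16175395 to 16186510, plus strand) overlapped the TSS and exon 1 (chr7:16175283-16175582). It had 3 input counts, 49 counts in ChIP replicate 1 and 21 in replicate 2. The ratios to input were 16.3 (5.27 to 81.9) and 7.0 (2.09 to 36.7), so the few input counts left the ratio loosely determined.

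The other 4 genes had no assigned peak. PBX proteins are the partners of MEIS and PKNOX proteins, and TGIF1 is a corepressor of TGF-beta signalling. The peak closest to a Pbx2 TSS lay 11925 bp away, at Rnf5 (173 and 134 ChIP counts), and that closest to Pbx3 lay 34861 bp away, at Mapkap1 (71 and 58 counts). For Pbx4 the closest peak lay 40914 bp away, at Atp13a1 (32 and 21 counts), and for Tgif1 it lay 137121 bp away, at Myl12b (80 and 53 counts). Each of these peaks lay within 1 kb of the TSS of the other gene named.

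Further genes of the family were examined by the same rule. The tendon gene Mkx had a peak at its TSS with 12 input counts and 52 and 33 ChIP counts. Irx3 and Irx6, which encode Iroquois proteins, had 1 peak each, more than 100 kb from the TSS. The Irx3 peak had 5 input counts and 16 and 12 ChIP counts, and the Irx6 peak had 7 input counts and 25 and 20 ChIP counts. The Mkx peak lay above the median summed ChIP count of all peaks, and the Irx3 and Irx6 peaks lay below it. No peak was assigned to Tgif2, Irx1, Irx2, Irx4 or Irx5.

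The position of the TALE gene peaks relative to curated RefSeq genes was compared with that of all peaks, each class being set by the gene with the nearest TSS. Only the Meis3 peak was TSS proximal (overlapping the TSS or up to 1 kb upstream), against 36.0% of all peaks. The Pknox1 and Meis1 upstream peaks were upstream (up to 10 kb), against 4.34%. There were 8 gene body peaks, against 33.9%, and 3 classed as intergenic, against 25.8%. These 3 included the Pknox2 peak in intron 3, whose nearest TSS was that of Fez1, and the Meis1 and Meis2 peaks past the gene's end. By the midpoint of the peak, 9 of 14 lay in an intron, against 33.3% of all peaks. More than 10 kb from any TSS lay 10 of the 14 peaks, against 32.9% of all peaks, and more than 100 kb away lay 7, against 7.91%. These counts rested on the annotation. With predicted RefSeq transcripts included, 4 of 14 lay more than 10 kb from any TSS (25.3% of all peaks) and 0 more than 100 kb (2.87%), and with GENCODE M21 transcripts 4 (22.4%) and 0 (1.44%) did. Pknox2 supplied 4 of the 7 in the curated annotation, and the counts of members are a description because the large genes of this list were chosen with peaks in view.

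**Figure D3:**
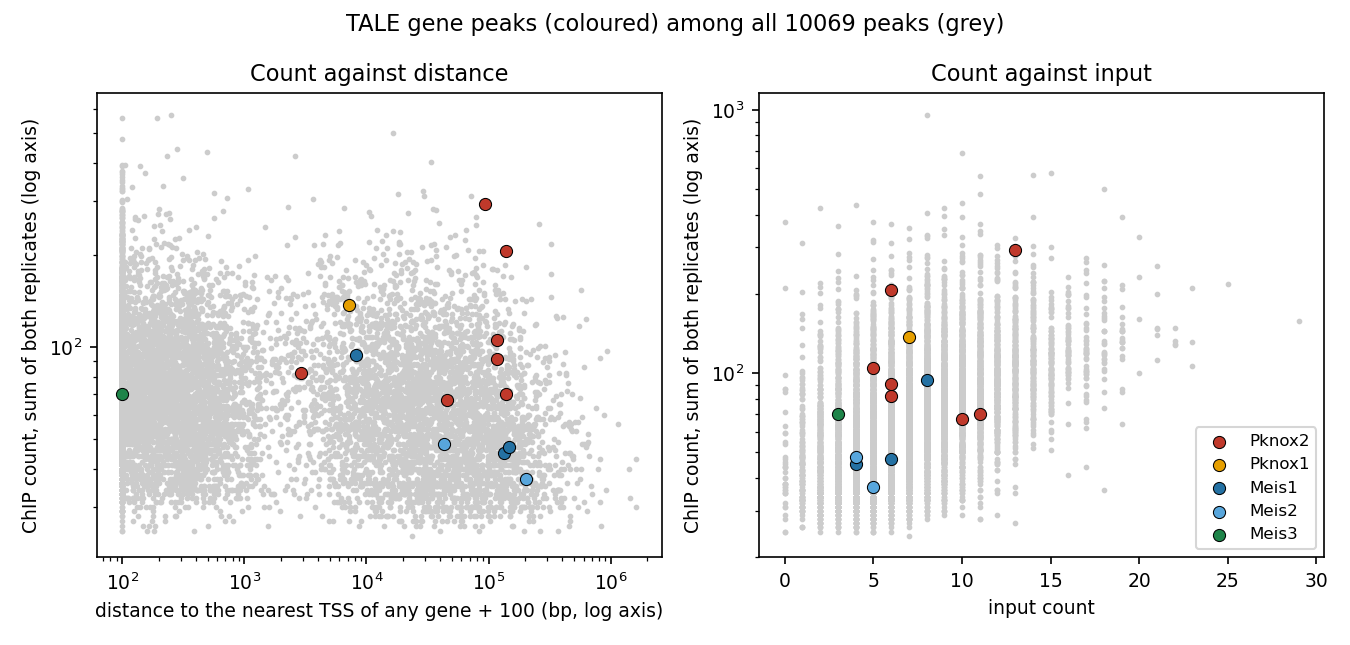
Summed ChIP count of every peak (grey) and of the TALE gene peaks (coloured by gene), against distance to the nearest curated TSS of any gene (left, bp with 100 added, log axes) and against input count (right). The strongest Pknox2 peak ranked 2 among the 1541 peaks more than 50 kb from a curated RefSeq TSS, a set it left with predicted RefSeq or GENCODE transcripts, and the Meis2 peaks and the downstream Meis1 peaks lie below the median summed count of 68.

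The ratio of ChIP to input was then set against that of the typical peak, with edgeR's quasi-likelihood test on all 3 libraries and TMM scaling on the counts at peaks. At an adjusted p under 0.05 the test called 1.53% of all peaks above the typical ratio and 0.0497% below. Of the 14 TALE gene peaks 1 was called, the Pknox2 peak in intron 3, whose log2 ratio was 1.78 ± 0.50 (SE, edgeR adjusted p = 0.0294). Each SE was derived from the test, as the size of the log2 ratio divided by the square root of its F statistic. At an unadjusted p under 0.05 there were 2 of 14, against 10.4% of all peaks. At the strongest Pknox2 peak the log2 ratio was 1.17 ± 0.36 (SE, edgeR adjusted p = 0.0638). The Meis3 peak had a log2 ratio of 1.21 ± 0.76, the Pknox1 peak 0.97 ± 0.53 and the Pknox2 peak at 116086 bp 1.07 ± 0.62, and none of them was called. The lowest value, -0.65 ± 0.52, was that of the Pknox2 peak at 138982 bp. In all, 10 peaks had positive and 4 negative log2 ratios, with a median of 0.36 against 0.02 over all peaks. Since the same ChIP reads chose the peaks, nothing is read from these calls. The call of the intron 3 peak was lost with other scalings while its log2 ratio moved little, to 1.67 with totals at peaks (edgeR adjusted p = 0.0699), 1.76 with DESeq2 size factors in edgeR (adjusted p = 0.203) and 1.76 with DESeq2 (adjusted p = 0.239). For the strongest peak the adjusted p ranged from 0.00718, when edgeR was fitted to peaks with at least 10 input counts, to 0.313.

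The split of the counts between the ChIP replicates was not used in choosing the peaks, and it was tested with a two-sided exact binomial test against the share expected from the totals at peaks (53.95% in replicate 1). It sets 1 library against another and says nothing of conditions. At an adjusted p under 0.05 it called 0 of the 14 TALE gene peaks, against 0.0993% of all peaks. Without adjustment 2 of the 14 had a p under 0.05, against 8.83% of all peaks. These were the Meis3 peak, with 49 counts in replicate 1 and 21 in replicate 2 (exact p = 0.00796, adjusted 0.344), and the Meis1 peak past the gene's end, with 16 and 31 (exact p = 0.00785, adjusted 0.344). They went opposite ways, Meis3 higher in replicate 1 and Meis1 in replicate 2. After adjustment no difference between replicates was detectable at this depth at any of the 14 peaks.

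**Figure D4:**
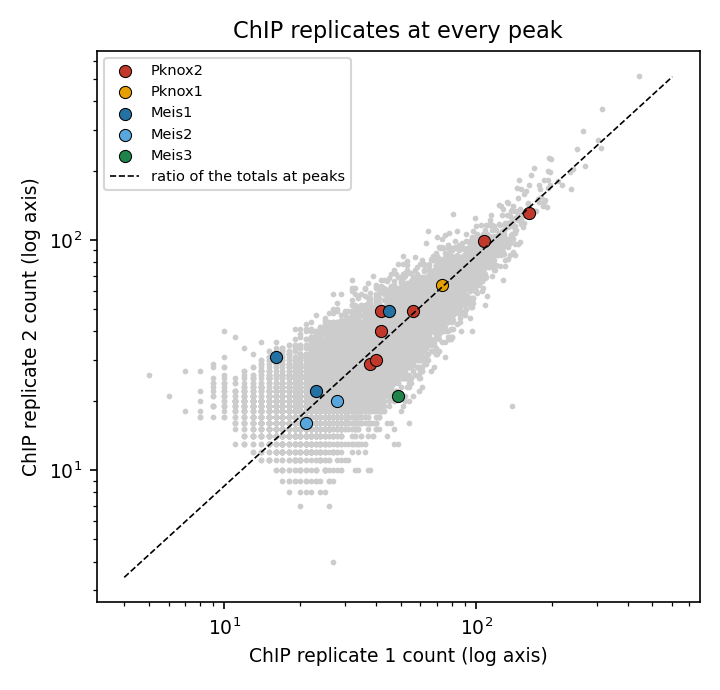
Counts of ChIP replicate 2 against ChIP replicate 1 at every peak (grey) and at the TALE gene peaks (coloured by gene), on log axes, with a dashed line at the ratio of the totals at peaks. The Meis3 peak (49 and 21 counts) lies below the line and the Meis1 peak past the gene's end (16 and 31 counts) above it, and the Pknox2 peaks lie on either side.

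The sequences of the TALE gene peaks were searched on both strands for short motifs, with matches given as a description. The half-site AGGTCA was present in 5 of the 14 peaks, against 37.7% of the 10064 peaks on assembled chromosomes. With GGGTCA counted as well, 11 of 14 had a match, against 58.9%. The longer form AGAGGTCA or AGGGGTCA, which contains the shorter one, occurred in 1 peak (10.5% of all), the Pknox2 peak at 138982 bp, 3 bp from the peak centre. In that peak, which had the lowest log2 ratio of the 14, a further AGGTCA lay 103 bp on the other side of the centre. The strongest Pknox2 peak had GGGTCA 25 bp from its centre, and the peak in intron 3 had it 73 bp from its centre. At Pknox1 the GGGTCA lay 30 bp from the centre. Half-sites of other Pknox2 peaks lay at 132 and 94 bp in the peak at 116086 bp and at 138 and 54 bp in the peak at 2789 bp. No half-site was found at the Pknox2 peaks at 45616 and 116815 bp or at the Meis1 peak past the gene's end. The direct repeat with 2 bases between the half-sites in the Meis2 intron was found in 0.646% of all peaks, and direct repeats with 0 to 8 bases between them in 5.13%.

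Motifs of the TALE proteins themselves were also searched in these peaks. TGACAG was present in 3 of 14 peaks, against 17.7% of all peaks, namely the Pknox2 peak in intron 3 (50 bp from the centre), the Pknox1 peak (128 bp) and the Meis2 peak past the gene's end (95 bp). TGATTNAT was present in 1 peak, in intron 9 of Meis1, which held it at 2 places, against 1.69% of all peaks. TGATTGAC, a joint PBX and MEIS core that can share bases with TGACAG, was present in 0 of 14 and in 0.556% of all peaks. The median GC content was 55.3% at the TALE gene peaks, 60.7% at all peaks and 52.3% at all peaks more than 10 kb from a TSS. GC content ranged from 45.3% in intron 9 of Meis1 to 72.3% at the Meis3 TSS, and the strongest Pknox2 peak had 61.7%.

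**Figure D5:**
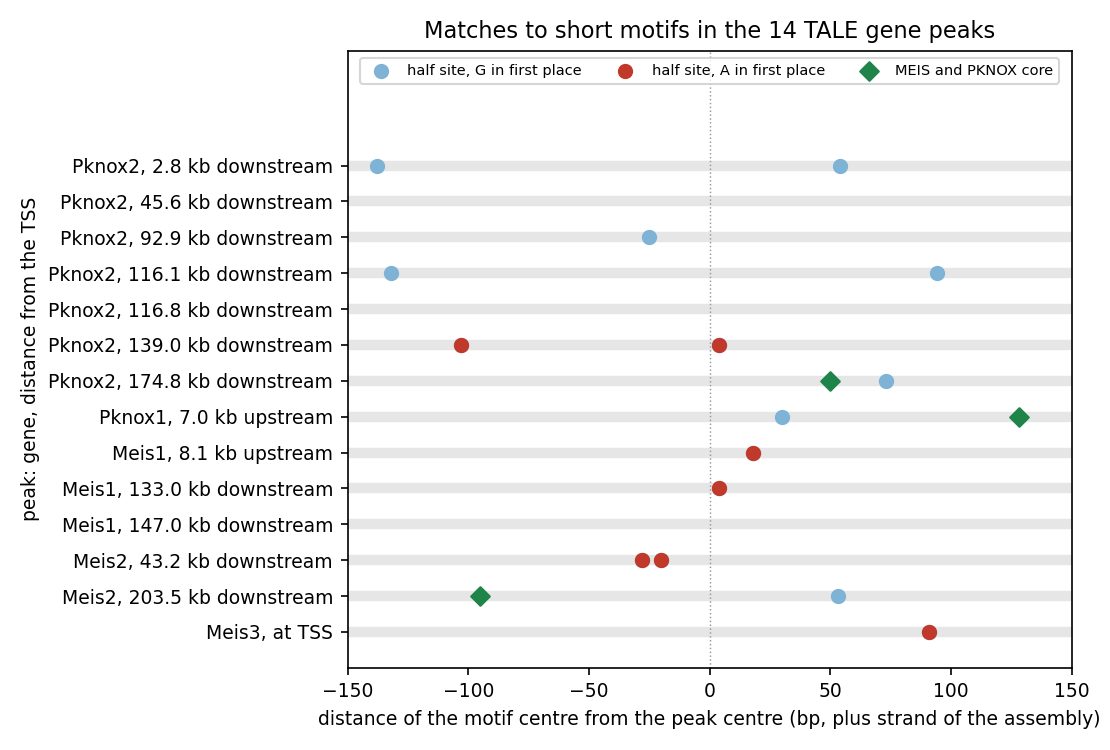
Positions of half-sites (red, A in the leading position; blue, G) and of the MEIS and PKNOX core (green diamonds) in the 14 TALE gene peaks, as distance from the peak centre in bp on the plus strand. Half-sites appear in 11 of the 14 peaks (58.9% of all peaks), and the pair in intron 8 of Meis2 lies 28 and 20 bp from the centre.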

How the data were processed

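NR2F2 ChIP-seq (2 libraries) and input (1 library) of mouse E14.5 testes were analysed from the raw counts at peaks that the authors deposited. Per the study's methods and processing notes, the authors used Trim Galore 0.6.7 for trimming, Bowtie 2 (local alignment to mm10), a mapping quality filter, and Picard 1.110 to remove duplicates. Peaks came from HOMER 4.11.1, run on both ChIP replicates merged, and were set to 300 bp. The rule that credits a read to a peak was not given in these sources. Merging before calling means that a peak need not have been called in each replicate, and that ChIP counts at peaks are high by choice.

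Groups came from the sample titles. Peaks were assigned to genes with curated RefSeq transcripts of GRCm38.p6 and distances ran from the closer peak edge. The members and lists were chosen with earlier results of these data known. Every peak of the 9 listed TALE genes was described, peaks of other TALE genes were given by their values (some results are not reported here), and the 2 peaks next above and 2 next below the strongest were named. All 10069 peaks entered edgeR 4.0.16 (quasi-likelihood test, glmQLFit then glmQLFTest; R 4.3.3 with limma 3.58.1) with TMM factors and Benjamini-Hochberg adjustment, no filter on low counts, and p under 0.05 after adjustment as the threshold. DESeq2 1.42.0 was an alternative. The edgeR step was tested on simulated counts. Ratios of raw counts carry exact 95% intervals, and 0.5 was added to each count for median ratios. The edgeR and DESeq2 p-values rest on the spread between the ChIP replicates, since a single input library gives none. The exact binomial p-values cover counting error only. Motifs were searched in the RefSeq genome sequence, for the 10064 peaks on chromosomes. Promoter sequences were not used here. Python 3.11.15, numpy 2.4.6, pandas 2.3.3, scipy 1.17.1 and matplotlib 3.10.9 were used for the remaining steps. The alternatives tried were other scalings, count filters, added counts, gene assignments, motif definitions and leaving out a ChIP replicate, and GENCODE M21 models, and distances to any TSS with predicted RefSeq or GENCODE transcripts, were added after the data had been seen.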

Additional observations from a re-analysis of the deposited data

How the results depend on the processing

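The number of TALE gene peaks ran from 10 to 14 and the number of genes with a peak from 4 to 8 over the ways of assigning peaks, the 8 genes being reached when any peak within 50 kb of a TSS was counted. Pknox2 held 7 peaks under every assignment except nearest TSS alone (6) and 50 kb of a TSS (2). With GENCODE M21 models, chosen after seeing the data, 12 peaks were assigned, without the Pknox1 peak and the Meis1 peak past the gene's end. The count of peaks away from the typical ratio was 1 and fell to 0 with DESeq2 size factors in edgeR, 0 with totals at peaks and no TMM, and 0 with DESeq2; over all peaks these gave 39, 102 and 22 above the typical ratio, with 890, 1021 and 212 peaks at an unadjusted p under 0.05, and DESeq2 gave no adjusted p for 9370 peaks. Among the 14, DESeq2 gave an adjusted p only for the Pknox2 peak in intron 3 and the strongest Pknox2 peak. With at least 10 input counts, 58 of 2427 peaks were called above. The TALE gene peaks fitted there were the Pknox2 peaks at 138982, 92853 and 45616 bp. Of these only the peak at 92853 bp, the strongest, was called. The median ratio was 5.75 with 1 and 3.87 with 5 added to each count, and 5.98 to 6.44 without one ChIP replicate or the other. Peaks with a half-site rose from 5 to 11 when GGGTCA was included, while the share over all peaks rose from 37.7% to 58.9%. The strongest Pknox2 peak ranked 787 by its ChIP to input ratio, against 44 by summed count, and 35 to 60 without one replicate or the other. The fits without a ChIP replicate gave values with no test, since no residual degrees of freedom were left. No paired analysis was possible because the input carries no replicate number and is a single library.

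The input held a median of 7 counts per peak and 3 to 13 at the TALE gene peaks, so a ratio at a single peak was loosely determined. Depth of the libraries beyond the peaks was not used here. Counts of members called or matched rest on 14 peaks.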
